A study of Mus musculus with 32 samples.

Results

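The cytosolic ribosomal protein genes were taken by symbol from the raw count tables of both B cell systems of the series. A mouse gene was a member if its symbol was Rpl or Rps followed by a number and, at most, an a or an x, or if it was Rplp0, Rplp1, Rplp2 or Rpsa. Pseudogenes were not members. The rule found 76 of 43345 mouse genes in each table, 30 for proteins of the small subunit and 46 for proteins of the large subunit, stalk proteins included. All 76 were annotated as protein coding, and they lay on 19 chromosomes, with 14 on chromosome 7 and 4 on the X chromosome. The rule leaves out genes such as Fau and Rps3a1, which also encode ribosomal proteins. The rule used no measured value.

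Ribosomal proteins assemble with ribosomal RNA in the nucleolus into a small subunit, which holds the messenger RNA during decoding, and a large subunit, which joins amino acids. The genes are expressed in every dividing cell and are among the most abundant transcripts of activated lymphocytes. Many of their mRNAs begin with a C followed by a run of pyrimidines, the 5' terminal oligopyrimidine motif through which the mTOR pathway and LARP1 control their translation. Free RPL5 and RPL11, with 5S ribosomal RNA, bind MDM2 and so link ribosome assembly to p53. ELOF1, the factor removed in this study, travels with elongating RNA polymerase II and takes part in repair of transcribed genes.

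There were 32 RNA libraries of activated mouse B cells. CH12F3 is a mouse B lymphoma line that switches to IgA; all of its libraries here came from Elof1-KO cells stimulated with α-CD40, IL4 and TGF-β. The knockout carried either +Vector (ELOF1-deficient, called vector) or +ELOF1 (the factor put back, called ELOF1). Each of these genotypes had 4 libraries at day 1.5 and 2 each at days 3 and 7. Splenic primary B cells were Elof1-cKO (called cKO) or wild-type (WT) and were stimulated with IL4 and LPS; each genotype had 5 libraries at day 2.5 and 3 at day 3.5. How many CH12F3 knockout clones were used, what drives the deletion in cKO cells, the age of the mice and the number of animals were not given in the sources used here. The labels do not say that replicates came from separate cultures or mice, so p-values measure the spread between these libraries, which may be technical. In bulk libraries, fewer cells of a type and less RNA per cell cannot be told apart.

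Libraries held 7112130 to 15550229 mouse counts in CH12F3 cells, against 9807560 to 16359477 in spleen cells, and the lowest count of any member in any library was 1036. All 76 members passed the filter on low counts in every fit. Elof1 itself averaged 3.76 ± 1.99 CPM (the TMM-scaled count unit used here, relative to library size) in vector libraries of day 1.5, against 467 ± 233 CPM with +ELOF1 (SD, n = 4 each). In spleen cells of day 2.5 it averaged 4.20 ± 1.80 CPM in cKO libraries, against 29.0 ± 16.5 CPM in WT (SD, n = 5 each). Marker CPM were taken relative to all mouse counts of a library, without TMM scaling. The 8 B cell markers summed to 1077 to 1591 CPM in CH12F3 and 3290 to 5261 CPM in spleen cells, and none of them was at 0 in a whole group. The 7 T cell markers summed to 51.7 to 147 CPM in CH12F3 and 12.1 to 35.8 CPM in spleen libraries, and their part in the results was not tested. In CH12F3 libraries most of this sum was Cd5 (11.9 to 85.1 CPM) and Lck (30.7 to 63.6 CPM). Cd3d, Cd3e and Cd3g were there at most 0.984, 0.423 and 0.489 CPM, Cd4 at most 4.22 CPM and Cd8a at most 2.25 CPM. In spleen libraries Lck was at 10.9 to 35.0 CPM. Library numbers in the labels form a first, low-numbered series of 8 libraries and a second of 24. CH12F3 day 1.5 replicates 1 and 2 and spleen day 2.5 replicates 4 and 5 of both genotypes belong to the first series, and these libraries stood apart in the members, as described with the library series below. Both spleen libraries numbered 5 at day 2.5 also had 1.38 (cKO) and 1.33 (WT) counts on annotated ribosomal protein pseudogenes per 100 member counts, against 0.245 to 0.441 in the other spleen day 2.5 libraries.

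The start of the transcript is where members resemble each other in sequence, so the start regions of genes that the results turn on are shown. RefSeq promoters (GRCm38.p6, 250 bases before to 50 after an annotated start) were at hand for 56 of the 76 members, 66 promoters in all. Each line gives 40 bases before and 20 from the annotated start, 5' to 3' on the gene's strand, and capitals mark the longest run of a C followed by at least 4 C or T that begins within 10 bases of the start.
Rps18 (chr17:33955646-33955705, minus strand): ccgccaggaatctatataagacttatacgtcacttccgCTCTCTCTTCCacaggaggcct
Rps16 (chr7:28350649-28350708, plus strand): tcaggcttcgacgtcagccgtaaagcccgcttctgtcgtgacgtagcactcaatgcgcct
Rpl41 (chr10:128549149-128549208, minus strand): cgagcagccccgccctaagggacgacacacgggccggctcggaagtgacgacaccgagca
Rpl13a (chr7:45128726-45128785, minus strand): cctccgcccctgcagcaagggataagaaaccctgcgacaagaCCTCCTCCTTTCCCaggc
Rpl28 (chr7:4792925-4792984, plus strand): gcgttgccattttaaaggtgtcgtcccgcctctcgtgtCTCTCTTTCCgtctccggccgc
Rps3 (chr7:99483690-99483749, minus strand): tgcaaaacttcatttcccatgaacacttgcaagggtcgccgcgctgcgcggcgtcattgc
Rps24 (chr14:24490638-24490697, plus strand): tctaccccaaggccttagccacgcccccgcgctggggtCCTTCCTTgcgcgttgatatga
Rpl22 (chr4:152325686-152325745, plus strand): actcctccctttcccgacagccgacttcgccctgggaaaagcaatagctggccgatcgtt
Rpl37 (chr15:5116573-5116632, plus strand): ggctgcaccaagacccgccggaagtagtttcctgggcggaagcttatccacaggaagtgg
Rpl35a (chr16:33056413-33056472, plus strand): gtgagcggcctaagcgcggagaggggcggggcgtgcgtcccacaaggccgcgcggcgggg
Rps21 (chr2:180257339-180257398, plus strand): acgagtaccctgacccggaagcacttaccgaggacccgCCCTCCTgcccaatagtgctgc
Rps15 (chr10:80292391-80292450, plus strand): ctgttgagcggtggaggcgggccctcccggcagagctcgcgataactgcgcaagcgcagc
Of the 6 genes lowest in CH12F3 relative to spleen cells under TMM scaling, Rps18, Rpl28 and Rpl13a carry a run at the start, and Rps16, Rpl41 and Rps3 carry none there. Of 5 of the genes highest in CH12F3 cells, Rps24 and Rps21 carry one, and Rpl22, Rpl37 and Rpl35a do not. Rps15 has none within 10 bases of its start, and runs farther from the start, as in Rpl22 and Rps15, were not marked. Of the 66 member promoters, 54.5% had a run on the transcribed strand, as did 30.7% of the 32851 RefSeq promoters. CCGGAAG, the core of an ETS factor site, was found on either strand in 36.4% of member promoters and 8.86% of all. TATAAA on either strand was in 9.09% and 13.6%. Neither string contains the other. A match is a description of letters, not a factor's site.

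Member levels are given as TPM, counts divided by length and scaled to the same sum in every library, since levels of different genes compare only per length; lengths were the union of annotated exons, 255 to 6262 bases. In CH12F3 cells the 5 highest were Rps12 at 5507 ± 667 TPM, Rplp1 at 5424 ± 1006, Rpl4 at 3910 ± 563, Rps24 at 3619 ± 625 and Rps26 at 3562 ± 423 TPM (SD, n = 16 libraries). The highest neighbours Rps12 and Rplp1 differed by less than either SD. RPS12 and RPS26 are small subunit proteins, RPL4 lines the exit tunnel, and RPLP1 is a protein of the stalk that recruits elongation factors. The 5 lowest were Rps15a at 187 ± 28.3, Rpl30 at 209.01 ± 14.99, Rpl22 at 225.3 ± 39.1, Rpl21 at 316 ± 57.1 and Rpl35a at 318 ± 23.3 TPM. In spleen cells Rps12 (5265 ± 734 TPM), Rplp1 (4556 ± 802), Rpl8 (3515 ± 456), Rplp0 (3343 ± 752) and Rpl4 (3206 ± 217.6) were highest. Rpl22 (132 ± 46.6 TPM), Rps15a (144 ± 23.8), Rpl35a (192 ± 22.1), Rpl36a (221.98 ± 62.3) and Rpl30 (228.6 ± 77.1) were lowest there. The highest level was 29.5 times the lowest in CH12F3 cells and 39.8 times in spleen cells, although the proteins are built into ribosomes in equal number apart from the stalk. Across the 76 genes, log2 TPM in the systems correlated at r = 0.960, and log2 TPM in CH12F3 correlated with log2 exonic length at r = -0.72; these are across genes, which share libraries and annotation, and a long union of exons lowers TPM by construction.

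Of mouse counts, the members together took 5.33% to 7.62% in CH12F3 libraries, against 5.83% to 7.37% in spleen libraries. Vector libraries averaged 6.34% ± 0.68 and ELOF1 libraries 6.26% ± 0.48 at day 1.5 (SD, n = 4 each). At day 3 vector libraries had 6.94% and 7.62%, and ELOF1 libraries 6.70% and 7.12%. At day 7 vector libraries had 7.14% and 6.88%, and ELOF1 libraries 6.48% and 7.08%. The genotypes overlapped at each of the 3 days. In spleen cells cKO libraries averaged 6.69% ± 0.55 and WT libraries 6.75% ± 0.51 at day 2.5 (SD, n = 5 each). At day 3.5 the averages were 6.71% ± 0.27 in cKO and 6.79% ± 0.03 in WT libraries (SD, n = 3 each). Against the Drosophila S2 RNA added per cell, the members gave 233 ± 65 counts per 100 fly counts in vector and 236 ± 34 in ELOF1 libraries at day 1.5. They gave 140 ± 27.2 in cKO and 153 ± 36.2 in WT libraries at day 2.5, and 101 ± 19.8 in cKO and 122 ± 25.3 in WT libraries at day 3.5. Each of these differences between genotypes was smaller than the larger SD of its groups, and the ranges overlapped.

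**Figure D1:**
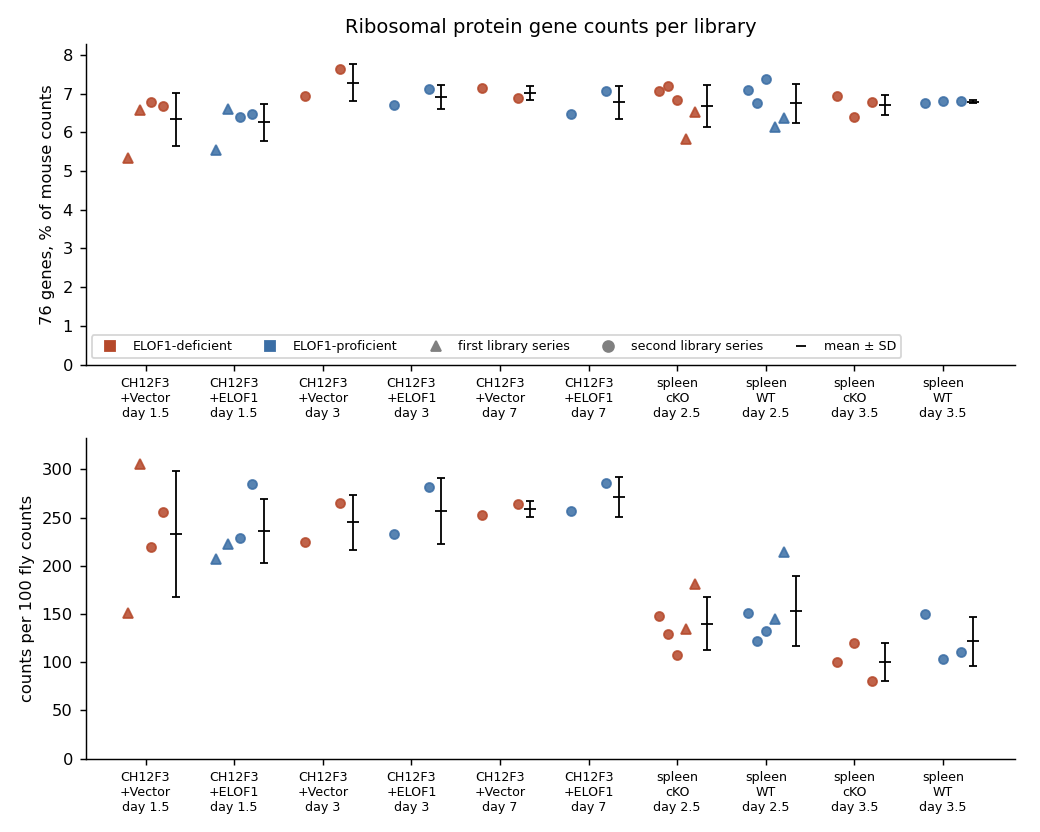
Counts on the 76 ribosomal protein genes in each library, as percent of mouse counts (top) and per 100 fly spike-in counts (bottom), by group; ELOF1-deficient is +Vector or cKO and ELOF1-proficient is +ELOF1 or WT, triangles are the first and circles the second library series, and bars are mean ± SD. Genotypes overlap in each system and day, and all first-series libraries of spleen cells (5.83% to 6.51%) lie below the second-series libraries of the same day (6.76% to 7.37%).

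In CH12F3 cells no ribosomal protein gene was called between vector and ELOF1 cells at an adjusted p below 0.05 by edgeR's quasi-likelihood test with Benjamini-Hochberg adjustment over all genes, at any of the 3 days. At day 1.5, 0 of 76 passed, where 1.15% of the 14201 genes tested did, and DESeq2 called 0. At an unadjusted p under 0.05, 12 members were higher and 2 lower (6.65% and 6.76% of all genes). Of the 667 genes at least as abundant as the lowest member, 89 were higher and 30 lower at that p. The members' median log2 fold change was 0.066 with TMM scaling and -0.0048 with scaling by fly counts, against 0.013 and -0.078 over all genes, and 68 of the 76 lay within 0.2 of 0, as did 60.8% of all genes. The 95% interval of the fold lay within 1.5-fold for 75 of the 76 genes. Rps23, a protein of the decoding centre, had 589, 774, 1059 and 918 CPM in vector and 551, 602, 787 and 795 CPM in ELOF1 libraries (replicates 1 to 4). Each vector library was above the ELOF1 library of its number, and the groups overlapped (log2 fold change 0.28 ± 0.09 SE, edgeR adjusted p = 0.165). Rpl28, a large subunit protein, had 477, 566, 736 and 653 CPM in vector and 641, 724, 773 and 751 CPM in ELOF1 libraries, each vector library below its ELOF1 counterpart (-0.26 ± 0.09, edgeR adjusted p = 0.206). With a block for replicate numbers, a pairing taken from the labels, 5 of 76 members passed at day 1.5, where 8.6% of all genes did in the same fit: Rps23 (0.27 ± 0.07, edgeR adjusted p = 0.0177), Rpl18 (0.25 ± 0.06, 0.0177), Rps21 (0.27 ± 0.07, 0.0242) and Rps26 (0.21 ± 0.06, 0.0336) were higher in vector cells and Rpl28 (-0.26 ± 0.07, 0.0292) was lower. Among second-series libraries alone, without the block, 0 members passed at any day and the day 1.5 median was 0.091.

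At day 3, 0 of 76 members passed, where 0.00704% of genes did, 5 were higher at an unadjusted p under 0.05 (1.76% of all genes), and DESeq2 called 0. The median was 0.127 with TMM scaling and -0.060 with fly scaling, against -0.00099 and -0.187 over all genes. The vector libraries did not overlap the ELOF1 libraries in 38 members that were higher and 3 that were lower, with 15.8% and 16.6% of all genes so placed and 2 libraries a group. Of the 667 genes at least as abundant as the lowest member, 178 were higher and 76 lower without overlap. The highest fold changes were those of Rpl29 (0.30 ± 0.19), Rps10 (0.29 ± 0.15) and Rps20 (0.27 ± 0.13), and among the lowest were those of Rpl23 (-0.16) and Rpl28 (-0.15), all with an edgeR adjusted p of 1. At day 7, 0 of 76 passed, where 0.0352% of genes did, 3 were higher at an unadjusted p under 0.05 (2.84% of all genes), and DESeq2 called 0. The median was 0.097 with TMM scaling and -0.053 with fly scaling, against 0.0099 and -0.135 over all genes, and 22 members were higher and 1 lower without overlap (16.7% and 16.1% of all genes). Among the 667 genes at least as abundant as the lowest member, 147 were higher and 62 lower without overlap. Rps21, a small subunit protein, had 363 and 292 CPM in vector and 242 and 244 CPM in ELOF1 libraries (0.43 ± 0.17, edgeR adjusted p = 0.765). Rps20 followed with 834 and 707 CPM against 574 and 672 CPM (0.31 ± 0.13, 0.794), then Rpl22 (0.28 ± 0.16, 0.943), and Rpl28 (-0.15), Rpl23a (-0.06) and Rpl13 (-0.06) were lowest. For no member did the genotype difference at day 3 or day 7 pass the edgeR test against that at day 1.5, with 0 members under an unadjusted p of 0.05 (1.22% and 1.92% of all genes), 0% of all genes called and 0 members called by DESeq2.

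The members with known roles beyond the ribosome's core stayed within narrow limits in CH12F3 cells. Rps6 is the protein phosphorylated by S6 kinase, Rps19 the gene most often mutated in Diamond-Blackfan anaemia in humans, Rps27a encodes a fusion with ubiquitin, Rpsa a laminin-binding protein of the small subunit and Rps4x an X-linked small subunit protein. Their log2 fold changes at day 1.5 were 0.04 ± 0.10, 0.01 ± 0.10, 0.03 ± 0.10, -0.05 ± 0.17 and 0.01 ± 0.07 in that order. Those of the stalk genes Rplp0, Rplp1 and Rplp2 were 0.08 ± 0.07, 0.04 ± 0.15 and 0.10 ± 0.13. The MDM2-binding pair Rpl5 and Rpl11 were at -0.01 ± 0.09 and -0.05 ± 0.13. Rpl10, of the tRNA-binding face, was at -0.01 ± 0.08, and the small basic proteins Rpl39 and Rpl41 were at -0.05 ± 0.15 and 0.11 ± 0.08. None of these 13 passed the edgeR test at any day, with or without the block.

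In spleen cells 2 ribosomal protein genes rose in cKO relative to WT cells at day 2.5, Rpl22 and Rps15, and none fell. This is 2 of 76, where 5.18% of the 13367 genes tested were called (2.82% higher, 2.36% lower), so the share called was below that of all genes. Rpl22, a large subunit protein that developing lymphocytes need in mice, had 183, 183, 188, 333 and 362 CPM in cKO and 138, 132, 153, 269 and 296 CPM in WT libraries, replicates 1 to 5. The groups overlapped as a whole, since replicates 4 and 5, of the first library series, were higher in both genotypes, and within each series every cKO library was above every WT library (log2 fold change 0.35 ± 0.07, edgeR adjusted p = 0.0110). Rps15, a small subunit protein near the decoding site, had 687, 745, 730, 772 and 709 CPM in cKO and 605, 572, 587, 679 and 620 CPM in WT libraries, with no overlap (0.25 ± 0.07, edgeR adjusted p = 0.0391). Rpl21 had 427, 439, 440, 630 and 927 CPM in cKO and 334, 315, 327, 480 and 811 CPM in WT libraries, each cKO library above the WT library of its number but with a wide spread, and did not pass (0.36 ± 0.13, edgeR adjusted p = 0.123). Over the members, 8 were higher and 0 lower at an unadjusted p under 0.05 (8.96% and 9% of all genes), 49 of 76 fold changes were above 0 (50.7% of all genes), and the median was 0.046 with TMM scaling and -0.101 with fly scaling, against 0.0042 and -0.144 over all genes. The lowest were Rps2 (-0.19), Rpl35 (-0.17) and Rps4x (-0.13). The count of 2 became 0 when scaled by fly counts and when the series term was dropped, 1 to 4 when a library was left out (4 without WT replicate 4), and 10, all higher in cKO cells, both within the second series alone (3.31% of all genes higher) and without both libraries numbered 5 (6.09%). Shares of all genes are not given here for fly scaling, the dropped series term or the single libraries left out. Those counts cannot be read as a result about the members. DESeq2 called 3 higher, Rpl22, Rps15 and Rps20 (4.37% of all genes higher). Rps15 lost its call when any of replicates 1 to 3 of either genotype, cKO replicate 4 or WT replicate 5 was left out (adjusted p 0.0618 to 0.111) and with no filter on low counts (0.245), whereas Rpl22 kept it in each of these.

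Rpl22l1, the paralog of Rpl22 whose RNA the RPL22 protein is known to repress in mouse cells, was lower in cKO than in WT cells. It had 64.7, 61.5, 49.9, 48.6 and 54.8 CPM in cKO and 79.2, 75.3, 96.4, 90.6 and 93.3 CPM in WT libraries at day 2.5, with no overlap (log2 fold change -0.64 ± 0.12, edgeR adjusted p = 0.00646). In replicates 4 and 5, where Rpl22 was higher in both genotypes, Rpl22l1 was at 90.6 and 93.3 CPM in WT libraries (replicates 1 to 3, 75.3 to 96.4). In cKO libraries it was at 48.6 and 54.8 CPM there (replicates 1 to 3, 49.9 to 64.7). Whether the changes of the 2 genes are linked was not tested. At day 3.5 Rpl22l1 had 60.8, 52.8 and 53.4 CPM in cKO and 77.3, 55.3 and 87.1 CPM in WT libraries, and the groups overlapped (-0.40 ± 0.16, edgeR adjusted p = 0.257). The call at day 2.5 held in each alternative run except scaling by fly counts, where the fold change was -0.77 and the adjusted p 0.0867. Of the 9 paralogs listed, 6 had enough counts to be tested at day 2.5, and the other 5 of these were not called. In CH12F3 cells Rpl22l1 was also lower in each vector library than in the ELOF1 library of its number. With CPM scaled jointly over both systems, day 1.5 had 30.2, 37.03, 42.9 and 58.4 against 47.98, 49.3, 64.4 and 73.3. Day 3 had 38.99 and 54.9 against 65.8 and 77.02, without overlap. Day 7 had 31.7 and 59.5 against 50.01 and 79.8. No tested paralog was called between these genotypes on any day by edgeR. Rpl7l1, the highest of the paralogs, was at 112 to 256 CPM in spleen libraries. How reads that fit both copies were counted is not given in the sources used here.

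**Figure D2:**
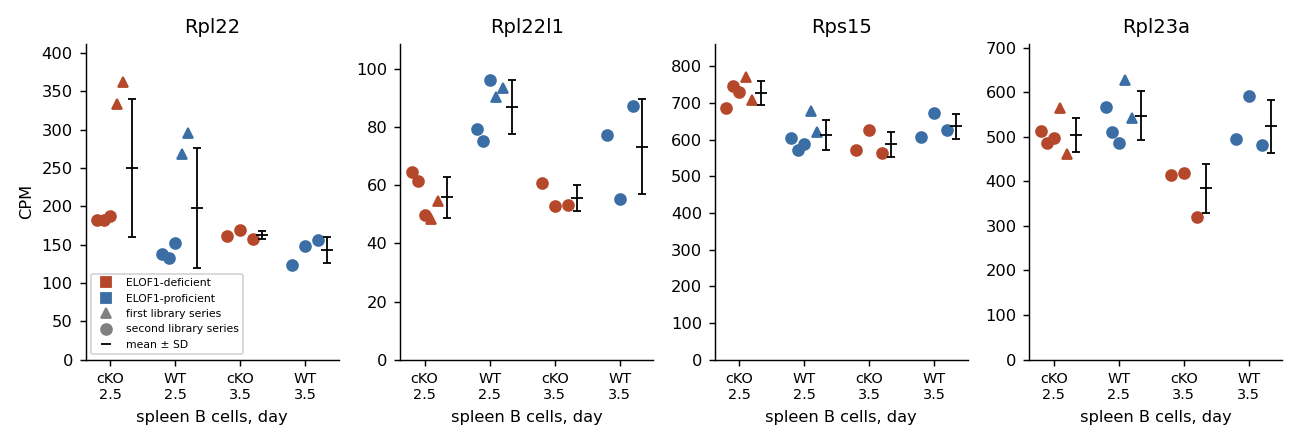
CPM of Rpl22, Rpl22l1, Rps15 and Rpl23a in each spleen library by genotype and day, with cKO left of WT; triangles are the first and circles the second library series, and bars are mean ± SD. Within each series every cKO library of day 2.5 is above every WT library for Rpl22 and below every WT library for Rpl22l1, Rps15 does not overlap at day 2.5 (687 to 772 against 572 to 679 CPM), and Rpl23a does not overlap at day 3.5 (320 to 419 against 482 to 592 CPM).

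At day 3.5, 0 of 76 members passed between cKO and WT cells, where 2.07% of genes did. At an unadjusted p under 0.05, 0 members were higher and 4 lower (6.75% and 6.78% of all genes), and DESeq2 called 1 lower, Rpl23a (2.03% of all genes lower). Rpl23a, a large subunit protein at the exit of the tunnel, had 413, 419 and 320 CPM in cKO and 496, 592 and 482 CPM in WT libraries, without overlap (log2 fold change -0.45 ± 0.12, edgeR adjusted p = 0.0834; DESeq2 adjusted p = 0.0171). Its exons overlap a snoRNA gene, Snord42b, on the same strand and Tlcd1 on the other. Rps27 (-0.36 ± 0.36) and Rpl36a (-0.33 ± 0.16) came next, and Rpl22 (0.19 ± 0.10, edgeR adjusted p = 0.435) and Rps20 (0.17 ± 0.09) were among the highest. Rpl22 had 161, 169 and 158 CPM in cKO and 124, 149 and 156 CPM in WT libraries, all cKO libraries above all WT libraries. The direction at day 2.5 was not seen for Rps15, with 572, 625 and 564 CPM in cKO and 607, 673 and 627 CPM in WT libraries (-0.12 ± 0.09, edgeR adjusted p = 0.674). In all, 3 members were higher and 10 lower without overlap, where 12.6% and 12.5% of all genes were so placed, and the median was 0.0047 with TMM scaling and -0.267 with fly scaling, against -0.0046 and -0.287 over all genes. Second-series libraries alone gave 2 calls, Rpl23a and Rpl38, both lower in cKO cells (4.34% of all genes lower). The change of the genotype difference between days passed for 0 members by edgeR and by DESeq2, with 3 lower at an unadjusted p under 0.05 (1.15% of all genes) and 0% of all genes called; that of Rps15 was -0.37 ± 0.11.

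Across the 5 genotype comparisons, 18 members had a fold change above 0 in all and 2, Rpl23a and Rpl28, below 0 in all, under TMM scaling. The share of all genes with the same sign in all 5 was not counted. These comparisons share no library, but those of each system come from 1 fit with a shared series term. With fly scaling the median of the members was below 0 in each of the 5. Among all genes at least as abundant as the lowest member, 667 in CH12F3 and 1128 in spleen cells, TMM-scaled medians were 0.043, 0.044 and 0.049 at CH12F3 days 1.5, 3 and 7 and 0.032 and 0.044 at spleen days 2.5 and 3.5, beside the members' 0.066, 0.127, 0.097, 0.046 and 0.0047. Of these genes 418, 432 and 421 of 667 and 671 and 688 of 1128 were above 0, in the same order. Of the 76 members 56, 67, 64, 49 and 38 were. Rps20 was among the 18, with 862, 893, 795, 828 and 944 CPM in cKO and 725, 647, 791, 755 and 813 CPM in WT libraries at day 2.5 (0.21 ± 0.07, edgeR adjusted p = 0.117). It had 795, 776 and 803 CPM in cKO and 688, 684 and 742 CPM in WT libraries at day 3.5, and 769 and 847 CPM in vector against 643 and 692 CPM in ELOF1 libraries at day 3. The groups did not overlap at days 3, 3.5 and 7, and no genotype comparison of Rps20 passed by edgeR, while DESeq2 called it at spleen day 2.5 (0.21 ± 0.07, DESeq2 adjusted p = 0.0311). The fold changes of the 76 genes at CH12F3 day 1.5 and spleen day 2.5 correlated at r = 0.396, and those at CH12F3 day 7 and spleen day 3.5 at r = 0.308; the points share the annotation and base composition of each gene, and genes are not independent replicates. The median size of a member's log2 fold change was 0.070, 0.133 and 0.098 at CH12F3 days 1.5, 3 and 7 and 0.0998 and 0.073 at spleen days 2.5 and 3.5.

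**Figure D3:**
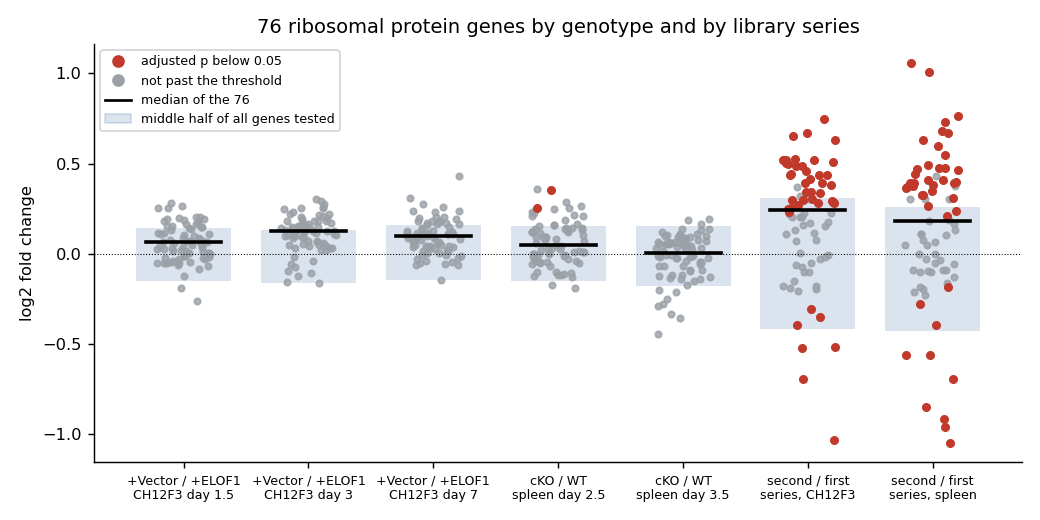
log2 fold changes of the 76 ribosomal protein genes (points) in the 5 genotype comparisons, ELOF1-deficient over ELOF1-proficient, and between library series, with TMM scaling; red points passed an edgeR adjusted p below 0.05, black bars are medians and blue bands the middle 50% of all genes tested. Medians lie between 0.0047 and 0.127 for genotype (between -0.267 and -0.0048 with fly scaling) and only 2 points passed there, while 43 (CH12F3) and 42 (spleen) passed between library series.

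Genes that work with the ribosomal proteins were counted by the same test. None of the 35 ribosome assembly factors, the tested RNA polymerase I genes (11 of 14) or the tested regulators of mTOR, MYC and MDM2 (14 or 15 of 15) was called in any of the 5 genotype comparisons. Of 17 other genes whose mRNAs begin with an oligopyrimidine tract, mostly translation factors, 16 were not called in any of them. The exception was Vim, an intermediate filament gene and no translation factor, which was higher in cKO than in WT cells at day 2.5 (0.65 ± 0.08, edgeR adjusted p = 1.74e-04) and day 3.5 (0.56 ± 0.10, 0.00695). The median of the 35 assembly factors was -0.098 at spleen day 2.5 and -0.085 at day 3.5, with 26 of 35 below 0 on each day. Fau and Rps3a1 had 0 calls in these comparisons.

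No member passed for time under stimulation in the main fits, while several alternative fits called members in spleen cells. In CH12F3 cells, with both genotypes averaged, 0 of 76 members passed for day 3 over day 1.5, where 0.218% of genes did, with 3 higher at an unadjusted p under 0.05 (3.96% of all genes) and 0 called by DESeq2. All 76 fold changes were above 0 under TMM scaling, as were 48.9% of those of all genes, with a median of 0.112 (0.022 with fly scaling, where all genes had -0.0998), from 0.00 (Rps21) to 0.22 (Rpl17). Of the 667 genes at least as abundant as the lowest member, 390 were above 0, with a median of 0.029. For day 7 over day 1.5, 0 of 76 passed, where 1.32% of genes did, with 0 at an unadjusted p under 0.05 (12.6% of all genes) and 0 called by DESeq2. Of the members 74 were above 0 (48.8% of all genes), with a median of 0.081 (0.099 with fly scaling, where all genes had 0.0059), led by Rplp1 (0.21), Rpl39 (0.20) and Rps12 (0.19), and with Rpl3 (-0.05) and Rps21 (-0.04) below 0. Of the 667 abundant genes, 434 were above 0, with a median of 0.058. Days 3 and 7 had second-series libraries only, so these values rest on the term for library series, and without it the members' medians were 0.233 for day 3 and 0.206 for day 7. Bop1, a factor for maturation of large subunit RNA, rose at day 7 (0.41 ± 0.09, edgeR adjusted p = 0.0492).

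In spleen cells 0 of 76 members passed for day 3.5 over day 2.5 in cKO cells, where 3.4% of genes did, with 15 lower at an unadjusted p under 0.05 (5.63% of all genes) and 8 called lower by DESeq2 (1.76% of all genes). The median was -0.147, with 62 below 0, as were 50.1% of all genes (-0.364 with fly scaling, where all genes had -0.222), and 15 members were lower without overlap (6.28% of all genes). Of the 1128 genes at least as abundant as the lowest member, 136 were lower at an unadjusted p under 0.05. Of the same 1128 genes, 759 were below 0 and 129 were lower without overlap, with a median of -0.080. Among the members Rpl36a, an X-linked large subunit gene, was lowest (-0.54 ± 0.15, edgeR adjusted p = 0.0568), followed by Rpl23 (-0.43) and Rpl30 (-0.40), and Rplp0 (0.11), Rpl10 (0.08) and Rpl35 (0.07) were highest. In WT cells 0 of 76 passed, where 5.45% of genes did, with 1 lower at an unadjusted p under 0.05 (6.54% of all genes) and 0 called by DESeq2. The median was -0.057 (-0.144 with fly scaling, where all genes had -0.079), from Rps14 (-0.44 ± 0.30), Rpl11 (-0.34 ± 0.17) and Rps16 (-0.29) to Rps27 (0.29), Rps24 (0.20) and Rps29 (0.16). Whether cKO and WT cells differed in this change is the test of the change in genotype difference above, which 0 members passed. Within the second series alone 15 members were lower in cKO cells (4.49% of all genes lower), and 2 were higher and 3 lower in WT cells (15.6% of all genes in either direction), at an edgeR adjusted p below 0.05. Without both libraries numbered 5, 14 were lower in cKO (5.65% of all genes) and 4 in WT cells (6.4%). With a block for replicate numbers across days, 17 were lower in cKO cells (5.4% of all genes lower), and 3 were higher and 4 lower in WT cells (15.7% in either direction). When a single library was left out, the count in cKO cells was 1 without day 2.5 replicate 4 or 5 and 2 without day 3.5 replicate 2. The shares of all genes in those fits are not given here, so these counts cannot be read as a result about the members.

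Between systems more members were called than between genotypes under TMM scaling, but the share called in either direction was below that of all genes. In CH12F3 ELOF1 cells over spleen WT cells, 8 members were higher and 41 lower under TMM scaling, with 32.4% and 35% of the 15639 genes tested called so (67.4% in either direction), whereas scaling by fly counts gave 74 higher and 0 lower, with 73.9% and 10.3% of all genes. The median of the members was -0.209 with TMM scaling, where all genes had -0.029, and 0.916 with fly scaling, where all genes had 1.08. The 827 genes at least as abundant as the lowest member had a TMM-scaled median of -0.229, lower than the members'. Cell line, tissue, stimulation, days and the presence of the knockout and of the +ELOF1 construct cannot be told apart here. Values below are joint CPM of 8 libraries of each system, with the directions of TMM scaling.

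Rps18, a small subunit protein of the head, was at 390, 506 and 573 CPM (lowest, median, highest) in CH12F3 ELOF1 and 835, 1035 and 1672 CPM in spleen WT libraries, with no overlap. Its log2 fold change was -1.12 ± 0.14 (edgeR adjusted p = 6.82e-08), the lowest of the members, and -0.01 with fly scaling. Its exons overlap Vps52 on the other strand. Rps16, another small subunit gene, was at 343, 589 and 657 CPM in CH12F3 ELOF1 and 516, 1027 and 1341 CPM in spleen WT libraries (-0.87 ± 0.17, edgeR adjusted p = 4.19e-05). The large subunit genes Rpl41 (-0.70 ± 0.12), Rpl13a (-0.67 ± 0.13) and Rpl28 (-0.63 ± 0.10) followed, then Rps3 (-0.49 ± 0.14), whose protein lies at the mRNA entry. Rpl28 was at 604, 749 and 830 CPM in CH12F3 ELOF1 and 858, 1193 and 1431 CPM in spleen WT libraries, with no overlap. With fly scaling the fold changes of Rps16, Rpl41, Rpl13a, Rpl28 and Rps3 were above 0.

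Among the 8 members that were higher in CH12F3 cells under both TMM and fly scaling, Rps27a led, at 818, 865 and 1107 CPM in CH12F3 ELOF1 and 437, 480 and 909 CPM in spleen WT libraries (0.75 ± 0.09, edgeR adjusted p = 1.06e-08). The groups overlapped only through WT replicate 5 of day 2.5, the library at 909 CPM. Rps24, of which the human gene is altered in some Diamond-Blackfan anaemia, was at 1076, 1278 and 1706 CPM in CH12F3 ELOF1 and 580, 797 and 954 CPM in spleen WT libraries, with no overlap (0.73 ± 0.14, edgeR adjusted p = 5.12e-05). Rpl22 was at 232, 264 and 423 CPM in CH12F3 ELOF1 and 133, 161 and 318 CPM in spleen WT libraries (0.68 ± 0.09, edgeR adjusted p = 1.41e-07). Rpl37 (0.51 ± 0.12), Rpl35a (0.45 ± 0.06), Rps21 (0.39 ± 0.11), Rps25 (0.38 ± 0.08) and Rpl24 (0.38 ± 0.08) completed the list. Without overlap were 3 higher (Rps24, Rpl24, Rpl35a) and 5 lower members (Rps18, Rps20, Rpl28, Rpl30, Rpl34), with 15.2% and 16.7% of all genes so placed. Both directions held genes of both subunits, with 4 higher and 16 lower of 30 in the small and 4 higher and 25 lower of 46 in the large subunit. Rplp0, Rplp2, Rps6 and Rps19 were lower under TMM and higher under fly scaling (-0.25 ± 0.09, -0.49 ± 0.11, -0.30 ± 0.07 and -0.26 ± 0.09 with TMM), and Rpsa, Rplp1, Rpl5, Rpl10 and Rpl39 did not pass under TMM (-0.05 ± 0.10, 0.03 ± 0.10, -0.09 ± 0.11, -0.02 ± 0.14 and 0.08 ± 0.14).

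**Figure D4:**
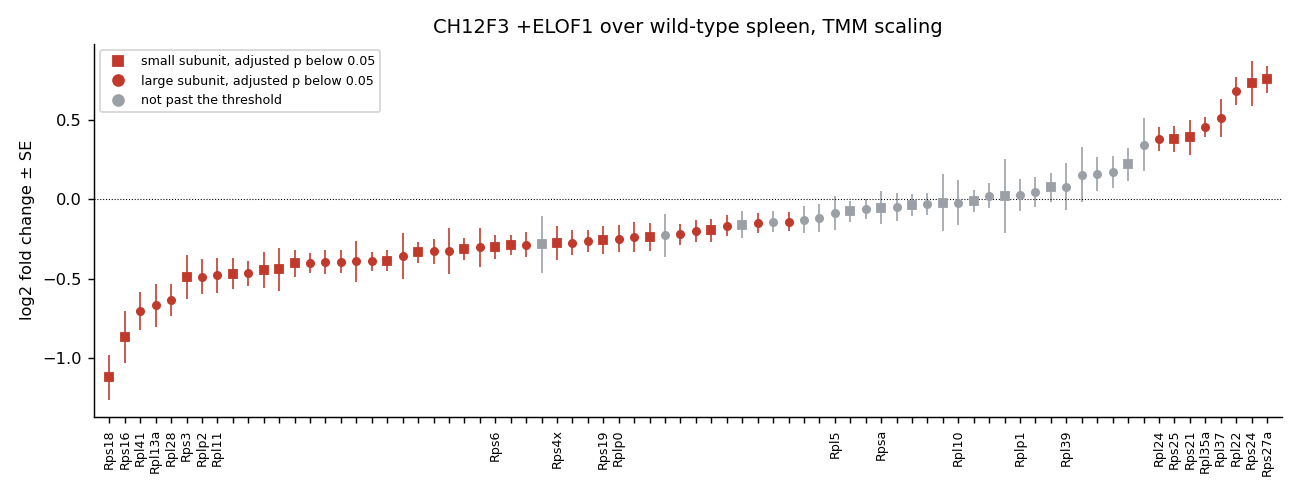
log2 fold change ± SE of each of the 76 ribosomal protein genes, CH12F3 +ELOF1 over wild-type spleen cells, in rising order with TMM scaling, with names under a selection of the members described in the text; squares are small and circles large subunit genes, and red marks an edgeR adjusted p below 0.05. Values run from -1.12 (Rps18) to 0.75 (Rps27a) with 8 called higher and 41 lower. With scaling by fly counts the median of all genes is 1.08, and 74 members are called higher and 0 lower.

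Of the ribosomal protein paralogs, Rps4l had 0 counts in all 16 CH12F3 libraries, where a count of 0 allows up to 0.0157 CPM over the pooled 191329687 counts, and 2.04 to 6.92 CPM in spleen libraries. Rpl39l, a paralog best known from testis, was at 1.49 to 4.20 CPM in CH12F3 and 0.00 to 0.65 CPM in spleen libraries. Genes that drive ribosome production were also compared between systems, with directions as in TMM scaling. Myc, the transcription factor that raises ribosomal genes, was higher in CH12F3 ELOF1 than in spleen WT cells (1.31 ± 0.11), as were Npm1 (1.02) and Gnl3 (1.11), both nucleolar proteins, and Eif4ebp1 (1.11), an mTOR target; all 4 were also higher with fly scaling. Eef2, the translocation factor (-0.60), Ubtf, which organises rDNA (-0.46), and Mdm2 (-0.86) were lower with TMM scaling and above 0 with fly scaling (0.52, 0.63 and 0.26), and Efl1, which releases EIF6 from large subunits, was lower with both (-1.63). Among the lists, 9 of 35 assembly factors were higher and 15 lower, 5 and 2 of 11 RNA polymerase I genes, 5 and 5 of 15 regulators and 4 and 9 of 17 oligopyrimidine genes under TMM scaling. Of all genes tested, 32.4% were higher and 35% lower (67.4% in either direction), so single called genes do not set these lists apart.

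More members were called between library series than between genotypes. In CH12F3 cells 36 of 76 members were higher and 7 lower in the second over the first series, where 20.1% and 18.4% of all genes were (38.5% in either direction), and the median was 0.240, against 0.0016 over all genes. Of the 667 genes at least as abundant as the lowest member, 318 were higher and 78 lower, with a median of 0.243. In spleen cells 32 were higher and 10 lower, where 18.3% and 22.1% of all genes were (40.3% in either direction), and the median was 0.182, against -0.054. Of the 1128 such abundant genes there, 387 were higher and 162 lower, with a median of 0.132. The median size of a member's log2 change between series was 0.294 in CH12F3 and 0.315 in spleen cells, larger than that of any of the 5 genotype comparisons given above. Rpl23 was lower in the second series in both systems (-0.70 ± 0.09 in CH12F3, -1.05 ± 0.19 in spleen, edgeR adjusted p = 9.02e-05 and 5.41e-04), as were Rpl22 (-0.52 ± 0.12 and -0.96 ± 0.07) and Rpl21 (-0.52 ± 0.11 and -0.91 ± 0.13). Rpl36a fell most in CH12F3 cells (-1.03 ± 0.27). Rps16 (0.75 ± 0.09) led in CH12F3 cells, and Rpl29 (1.06 ± 0.25) and Rps29 (1.005 ± 0.37) led in spleen cells. The first-series replicates 4 and 5 of spleen cells were not alike, and 1 term covers both. In cKO cells of day 2.5, Rpl10 was at 415 CPM in replicate 5 (others 889 to 935). Rpl41 was at 896 CPM in replicate 4 (others 1600 to 1862). The spleen series values are thus an average over unlike libraries. The series fold changes of the 76 genes in the 2 systems, which share no library, correlated at r = 0.678. Mitochondrial transcripts moved with the series in spleen cells, at 0.574% to 1.22% of mouse counts in second-series and 2.90% to 3.55% in first-series libraries of day 2.5, and their part in the result was not tested. Genotypes were balanced over the series in both systems, and the term for library series was in every main fit.

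**Figure D5:**
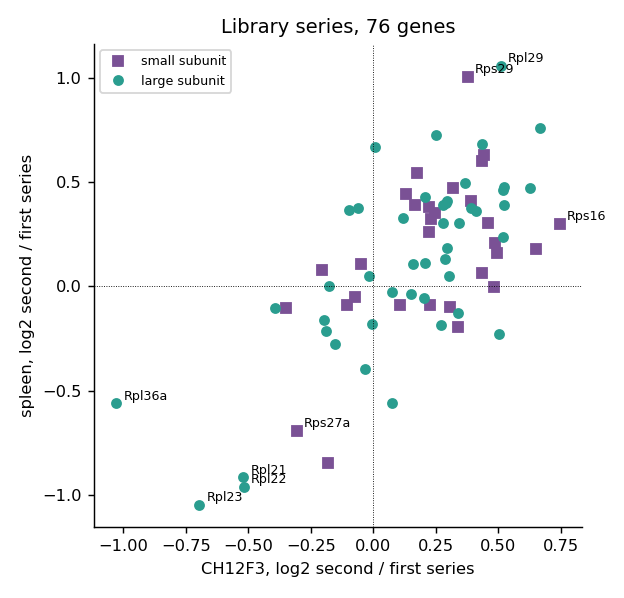
log2 change of each of the 76 ribosomal protein genes in the second over the first library series in CH12F3 (horizontal) and spleen cells (vertical); squares are small and circles large subunit genes. Points spread along the diagonal (r = 0.678), with Rpl23, Rpl22, Rpl21 and Rpl36a low in both systems.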

How the data were processed

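Raw read counts per gene were deposited by the authors, 1 table per cell system with 16 libraries each. Per the labels' protocols, RNA was rRNA-depleted and libraries were strand-specific; per the submitters' processing notes, the tools were featureCounts and Bowtie2, with mm10 and dm6 as builds. Not given in the sources used here are the gene release, whether strand was used and how multi-mapping reads were treated. Members and lists were chosen with earlier results of these data known.

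The 17509 fly genes in each table were set aside. Counts were fitted with edgeR 4.0.16 (limma 3.58.1, R 4.3.3): TMM scaling, filterByExpr with a minimum count of 10, a term per group and per library series, 1 quasi-likelihood fit per system and 1 joint fit, Benjamini-Hochberg adjustment over the 14201 (CH12F3), 13367 (spleen) and 15639 (joint) genes tested, and a threshold of 0.05. Symbols were matched by identifier, 42461 of 43345. Intervals cover the spread between libraries. The 14 members always named were Rpsa, Rps6, Rps19, Rps27a, Rps4x, Rplp0, Rplp1, Rplp2, Rpl5, Rpl11, Rpl10, Rpl22, Rpl39 and Rpl41; others were named by size of change (up to 6 called per direction, or 3 per direction with no call) or by level (5 per end). Members outside this rule, such as Rps20, Rpl38 and those called only in an alternative, were named after their values were seen. Some members are counted but not reported singly here. The first comparison of each fit was also run on simulated counts that held no series shift and no pairing. The outcome is not given here. Alternatives were DESeq2 1.42.0, its size factors, scaling by fly counts, TMM without the members, no filter, no series term, second-series libraries alone, pseudogene counts added to members, a replicate block and leaving out each library; leaving out both libraries numbered 5 was chosen after seeing the data.

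Replicate numbers in the labels were taken to pair the CH12F3 genotypes: within a library series, deviations of same-numbered libraries correlated at 0.48 and 0.43 at day 1.5, 0.50 at day 3 and 0.34 at day 7, each value shared by a set of 2 pairs. For WT spleen cells between days the 3 pairs correlated at 0.17 to 0.19 within series (-0.05 to 0.35 from group means), and the blocked count is given beside that result. No 2 replicates agreed within counting noise. Plots were drawn with matplotlib 3.10.9, and tables made in pandas 2.3.3 and SciPy 1.17.1 under Python 3.11.15 with NumPy 2.4.6.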

Additional observations from a re-analysis of the deposited data

Results flagged for a closer look

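In groups of 4 or 5 libraries, 108 sets of values of 24 named members and of summed measures were searched for a library far from the others of its group, and 11 were found, where chance gives about 1 in 20. Spleen day 2.5 replicate 5 stood apart in both genotypes: Rpl10 was at 415 CPM in cKO (others 889 to 935) and 376 CPM in WT libraries (others 871 to 1000), and Rpl5 was at 1508 CPM in cKO (others 811 to 1003) and 1677 CPM in WT libraries (others 916 to 1077). The same pair had 1.38 pseudogene counts per 100 member counts in cKO (others 0.312 to 0.434) and 1.33 in WT libraries (others 0.245 to 0.441), and Rpl39 was at 404 CPM in WT replicate 5 (others 225.9 to 275). Replicate 4 of that day was low in Rpl41 in both genotypes, at 896 CPM in cKO (others 1600 to 1862) and 863 CPM in WT libraries (others 1681 to 1949). These 4 libraries belong to the first library series. In CH12F3 cells at day 1.5, also in the first series, members held 5.33% of mouse counts in vector replicate 1 (others 6.57% to 6.79%) and Rpl11 was at 951 CPM in ELOF1 replicate 2 (others 631 to 684).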

How the results depend on the processing

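Over the alternatives, 455 recomputed counts and medians of members stayed within 1.5 times the count or within 1 SD, and 39 did not. Scaling by fly counts moved the members' median to -0.060 (CH12F3 day 3), -0.053 (day 7), -0.059 (genotype by day, day 3), -0.101 (spleen day 2.5, with 0 calls), -0.267 (day 3.5), -0.364 (cKO over time), -0.220 (genotype by day, spleen) and 0.916 (CH12F3 over spleen, with 74 calls). All genes moved with them, to medians of -0.187, -0.135, -0.108, -0.144, -0.287, -0.222, -0.140 and 1.08. Without the series term the median for CH12F3 day 3 over day 1.5 was 0.233 and spleen day 2.5 had 0 calls. With the replicate block, CH12F3 day 1.5 had 5 calls (8.6% of all genes), WT over time 7 (15.7%) and cKO over time 17, all lower (5.4% of all genes lower). In CH12F3 cells the block changed no other count. Between spleen genotypes it gave 9 calls at day 2.5 and 1 at day 3.5. The shares of all genes called in that spleen fit are not given here, so these counts cannot be read as a result about the members. In spleen cells same-numbered libraries correlated within a series at -0.20 to 0.13 for replicates 1 to 3 of day 2.5, at 0.78 for replicates 4 and 5 and at -0.28 to 0.07 for day 3.5, so between spleen genotypes replicates 4 and 5 deviated together and the others did not; between days the correlations were 0.17 to 0.19 in WT and -0.028 to 0.22 in cKO cells. No paired analysis was possible across CH12F3 days or systems because the numbers name different libraries there. Without a filter, WT and cKO over time had 1 and 3 calls, and the shares of all genes in that fit are not given here. DESeq2 called 1 at spleen day 3.5 and 8 for cKO over time. Second-series libraries alone gave 10 (day 2.5), 2 (day 3.5), 5 (WT over time) and 15 (cKO over time). Without both libraries numbered 5 these were 10, 2, 4 and 14, and the share of all genes at day 3.5 in that fit is not given here. Leaving out 1 library gave 1 to 4 calls at spleen day 2.5, 0 to 2 for cKO over time, and 36 to 52 for CH12F3 over spleen. The shares of all genes in those fits are not given here, so these counts cannot be read as a result about the members. Leaving out 1 library moved the genotype median to 0.0071 to 0.125 (CH12F3 day 1.5), 0.060 to 0.157 (day 3), 0.029 to 0.178 (day 7), 0.024 to 0.088 (spleen day 2.5) and -0.0078 to 0.035 (day 3.5), and the time median to 0.090 to 0.143 (day 3), 0.049 to 0.147 (day 7), -0.088 to -0.028 (WT) and -0.166 to -0.121 (cKO). With fly scaling, members lower in CH12F3 than in spleen cells were higher: Rps6 0.81, Rps19 0.87, Rps4x 0.84, Rplp0 0.89, Rplp2 0.63, Rpl11 0.62, Rpl41 0.41, Rps16 0.23, Rpl13a 0.44, Rpl28 0.47 and Rps3 0.61, and so were Eef2 0.52, Mdm2 0.26, Mlst8 0.42, Rpl22l1 0.69, Fau 0.70, Rps3a1 0.94, Utp14a 0.48, Taf1c 0.53 and Ubtf 0.63. The causes were not tested beyond the constructions of the alternatives. Groups of 2 libraries, 27 members whose exons overlap another gene, and 55 with pseudogenes limit single-gene values.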

Other observations

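Markers of other cell types were summed per library, as CPM without TMM scaling and without a test. In CH12F3 libraries myeloid markers summed to 45.8 to 228.3 CPM, plasma cell markers to 154 to 505 CPM, erythroid markers to 0.427 to 2.58 CPM and NK cell markers to 0.00 to 0.422 CPM. Of the myeloid markers there, Adgre1 was at 5.76 to 184 CPM and Csf1r at 21.6 to 62.5 CPM. Lyz2, Itgam, Cd14 and Mpo were at most 0.489, 1.69, 0.0711 and 0.518 CPM. In spleen libraries the sums were 2.85 to 17.98 CPM for myeloid, 415 to 1203 CPM for plasma cell, 0.0852 to 1.01 CPM for erythroid and 0.00 to 0.431 CPM for NK cell markers.

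Annotated ribosomal protein pseudogenes with enough counts to be tested numbered 82 in CH12F3 and 81 in spleen cells. In spleen cells 1 was higher and 45 were lower in the second over the first library series by the edgeR test (18.3% and 22.1% of all genes), with a median log2 change of -1.20, where the members' median was 0.182. The first-series libraries differed among themselves. Replicate 5 had 1.38 (cKO) and 1.33 (WT) pseudogene counts per 100 member counts, replicate 4 had 0.434 and 0.441, and second-series libraries of day 2.5 had 0.245 to 0.318. The part of replicate 5 in this median was not tested. In CH12F3 cells 2 pseudogenes were higher and 13 lower (20.1% and 18.4% of all genes), with a median of -0.32, where the members' median was 0.240.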
